A study of Rattus norvegicus with 15 samples.

Results

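Chemokines are small secreted proteins that attract leukocytes, and 10 of their genes are described here over 15 rat mammary tumours: Cxcl1, Cxcl2, Cxcl9, Cxcl10, Cxcl12, Cxcl14, Ccl2, Ccl5, Ccl7 and Ccl21. They were selected on results of these data already known, namely their levels by diet and how those levels varied together between tumours, so both are given as descriptions and support nothing further. All 10 genes were measured, by 12 probes, of 8378 named genes and 21011 probes in all that passed a filter on dim signal (a probe had to be well above background on 5 or more arrays).

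RNA from tubular or papillary mammary tumours of female Sprague-Dawley rats, taken at 180 days of age, was hybridised to 15 single-colour Agilent rat arrays, with 5 tumours from each of 3 diets given early in life. The chow held 3 (zinc deficient), 35 (adequate, the control) or 180 (zinc supplemented) mg/kg zinc; 16 dams per group ate it between gestation day 10 and weaning on day 21, and their daughters stayed on it until day 51. Every group then received 1 intragastric dose of 50 mg/kg of DMBA, a chemical that induces mammary tumours, and adequate chow until day 180. Nothing in the labels ties a tumour to its own animal or litter, and p-values therefore measure the spread between these samples, which may be partly technical.

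The chemokines named here signal through receptors on leukocytes and other cells. Cxcl1 and Cxcl2 are ligands of Cxcr2 and attract neutrophils, Cxcl9 and Cxcl10 are interferon-induced ligands of Cxcr3 and attract activated T cells, and Ccl2 and Ccl7 attract monocytes through Ccr2. Ccl5 is made by T cells and other cells and attracts T cells and monocytes, Cxcl12 is a stromal ligand of Cxcr4, Cxcl14 is made largely by epithelium, and Ccl21 is a ligand of Ccr7 that guides T cells and dendritic cells to lymph nodes.

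The promoters of 4 of these genes are shown because the genes form 2 neighbouring pairs on chromosome 14 whose levels moved together within each pair (below), while the pairs differ in the transcription factors known to act on them. Each sequence is the 250 bases before the annotated gene start, from RefSeq, build GRCr8, written 5′ to 3′ on the gene's strand. Capitals mark matches, on either strand, to a kB-like motif (GGG, any 3 bases, then TTCC) or to an ISRE-like motif (TTTC, any 2 bases, then TTTC). The Cxcl1 window is chr14:17479322-17479571 (minus strand), the Cxcl2 window chr14:17467256-17467505 (minus strand), the Cxcl9 window chr14:16006916-16007165 (plus strand) and the Cxcl10 window chr14:15988816-15989065 (plus strand).
Cxcl1: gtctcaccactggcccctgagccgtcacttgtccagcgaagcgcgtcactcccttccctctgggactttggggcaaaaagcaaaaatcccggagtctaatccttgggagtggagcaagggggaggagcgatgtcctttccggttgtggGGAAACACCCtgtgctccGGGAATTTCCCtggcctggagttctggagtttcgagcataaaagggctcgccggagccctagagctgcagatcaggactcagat
Cxcl2: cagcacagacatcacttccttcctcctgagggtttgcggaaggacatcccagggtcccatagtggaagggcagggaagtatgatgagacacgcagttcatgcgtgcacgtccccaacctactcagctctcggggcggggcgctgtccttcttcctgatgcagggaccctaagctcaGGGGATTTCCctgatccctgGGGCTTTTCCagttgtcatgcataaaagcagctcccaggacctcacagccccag
Cxcl9: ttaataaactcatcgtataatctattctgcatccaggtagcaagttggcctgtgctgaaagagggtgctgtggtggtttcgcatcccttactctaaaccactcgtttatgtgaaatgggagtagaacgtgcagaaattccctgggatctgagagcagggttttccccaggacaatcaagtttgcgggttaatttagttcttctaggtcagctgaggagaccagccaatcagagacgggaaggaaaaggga
Cxcl10: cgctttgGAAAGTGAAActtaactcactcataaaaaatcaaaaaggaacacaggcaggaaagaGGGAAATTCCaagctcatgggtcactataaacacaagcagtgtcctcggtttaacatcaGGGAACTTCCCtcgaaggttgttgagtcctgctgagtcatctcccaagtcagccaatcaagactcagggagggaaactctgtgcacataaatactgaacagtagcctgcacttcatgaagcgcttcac

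The kB-like letters, which resemble the site bound by NF-kB, were found in the Cxcl1, Cxcl2 and Cxcl10 windows and in that of Ccl7, thus in 4 of the 8 members with a RefSeq promoter entry. Of all 33469 promoter windows of this length in the table, 1516 (4.53%) held them. The ISRE-like letters, which resemble the site bound by interferon-activated factors, were found in the Cxcl10 window alone among those 8, against 1140 windows (3.41%) of the whole table. In Cxcl1 the match starting at position -84 from the gene start, GGGAATTTCC, overlaps a match on the opposite strand starting at -83, and another starts at -102; the Cxcl10 matches at -128 and -127 overlap in the same way. The Cxcl9 window held neither run of letters, which says only that these letters are not in this window. Ccl2 and Ccl5 have no entry.

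Levels are given as log2 processed signal relative to the array's own 75th percentile, so 1 unit is a doubling and 0 is the signal of the array's 75th percentile probe. Levels of different probes are not set against each other. Each array had 13854 to 24009 of 43379 spots well above background, a scanner mark for signal clearly over the local background, and 0 saturated spots. The arrays lay on 4 slides that each held all 3 diets. All 8 epithelial markers on the array, such as Krt18, Cdh1 and Epcam, were well above background on all 15 arrays. In bulk tumour RNA, fewer cells of a type and less RNA per cell cannot be told apart.

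In a limma model over all 21011 probes, 0 probes passed an adjusted p of 0.05 in any of the 3 diet comparisons. At an unadjusted p under 0.05, 822 probes (3.91%) differed between deficient and control tumours, 415 (1.98%) between supplemented and control tumours and 1482 (7.05%) between supplemented and deficient tumours; an F test over the 3 diets gave 0 adjusted calls and 847 unadjusted ones (4.03%). Among the 10 chemokines, 1 gene, Cxcl1, had an unadjusted p under 0.05 in the first of these comparisons and again in the second, and none had in the last. The lowest adjusted p of a chemokine was 0.987 for deficient against control tumours, 1.000 for supplemented against control tumours and 0.783 for supplemented against deficient tumours, each from limma. Because these contrasts served in choosing the genes, nothing is read from these counts.

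The log2 difference between deficient and control tumours was above 0 for 4 chemokines and below 0 for 6, with a median of -0.18, beside 49.3% of all tested probes above 0 and a median of -0.00457 over all of them. Between supplemented and control tumours 3 were above 0 and 7 below, with a median of -0.14, beside 48.8% of probes above 0. Between supplemented and deficient tumours 4 were above 0 and 6 below, with a median of -0.05, beside 49.9% of probes above 0. The first and the second of these comparisons share the control tumours. In no chemokine did deficient tumours lie wholly above or below control tumours, a pattern that 0.171% and 0.219% of probes showed. In 1 chemokine, Cxcl1, every supplemented tumour lay above every control tumour, as in 0.209% of probes (0.148% lay wholly below). Between supplemented and deficient tumours no chemokine was separate, against 0.857% of probes wholly higher and 0.643% wholly lower in supplemented tumours.

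**Figure D1:**
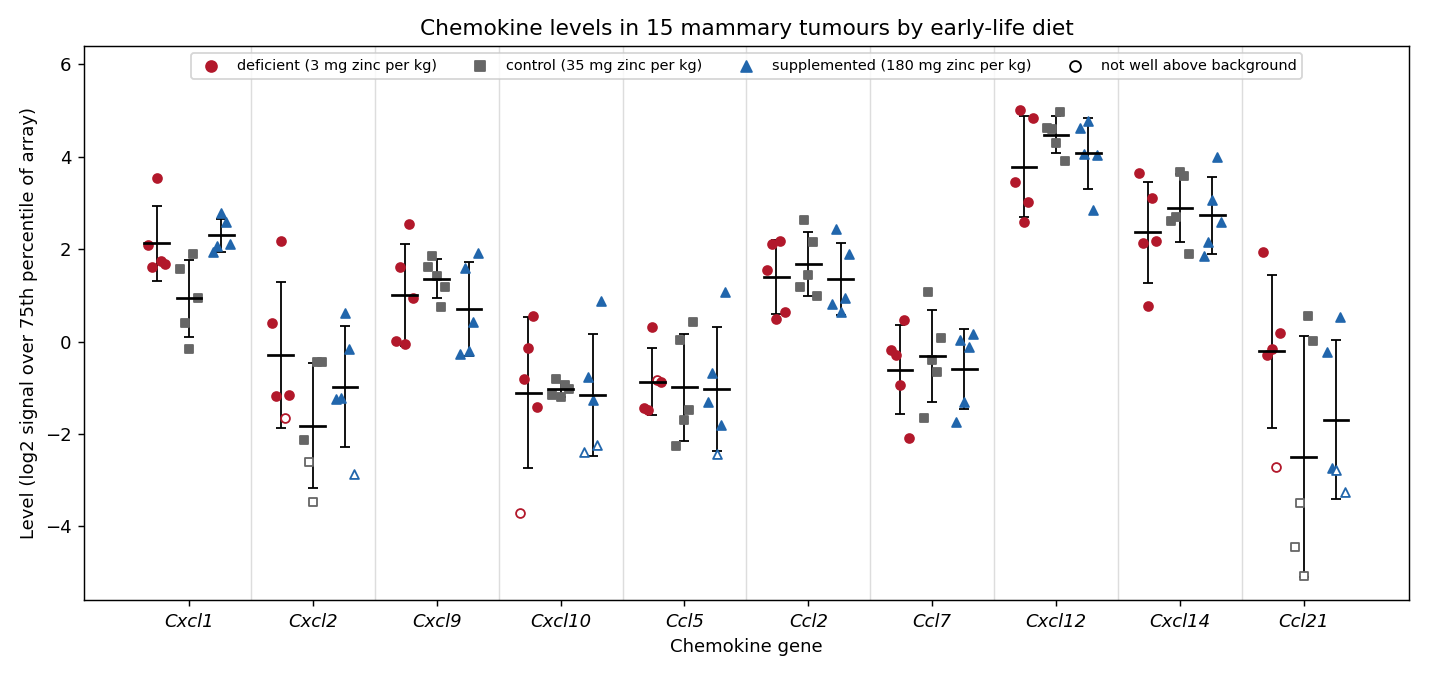
Level of each of 10 chemokine genes in 15 tumours, as log2 signal over the array's 75th percentile. Points are tumours, placed in the order deficient, control, supplemented within each gene; open points are not well above background; bars give the mean and SD (n = 5 per diet). Cxcl1 has its lowest values in control tumours, and Ccl21 runs from -5.07 to 1.93.

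Cxcl1 was well above background on all 15 arrays and had its lowest values in control tumours. Its levels in deficient tumours 1 to 5 were 2.09, 1.61, 3.54, 1.73 and 1.67. In control tumours 1 to 5 they were 1.57, 0.41, -0.16, 1.90 and 0.95, and in supplemented tumours 1 to 5 they were 1.94, 2.07, 2.78, 2.59 and 2.11. The lowest supplemented tumour, at 1.94, stood just above the highest control tumour, at 1.90, and 4 control tumours lay below every tumour of the other diets. The mean was 2.13 ± 0.81 in deficient tumours, 0.94 ± 0.84 in control tumours and 2.30 ± 0.37 in supplemented tumours (SD, n = 5 each).

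The Cxcl1 log2 difference was 1.19 (95% confidence interval 0.34 to 2.05) for deficient minus control tumours, a fold of 2.29. For supplemented minus control tumours it was 1.36 (0.51 to 2.22), a fold of 2.57, and for supplemented minus deficient tumours 0.17 (-0.69 to 1.03). Within a slide the supplemented tumours exceeded the control tumours on 4 of 4 slides, by 0.37 to 2.74, with the smallest gap on slide 1. The size of the differences depended on the background correction: with normexp, a model-based correction of the raw signal, supplemented minus control was 0.56 and deficient minus control 0.78. With arrays weighted by quality deficient minus control was 0.76.

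**Figure D2:**
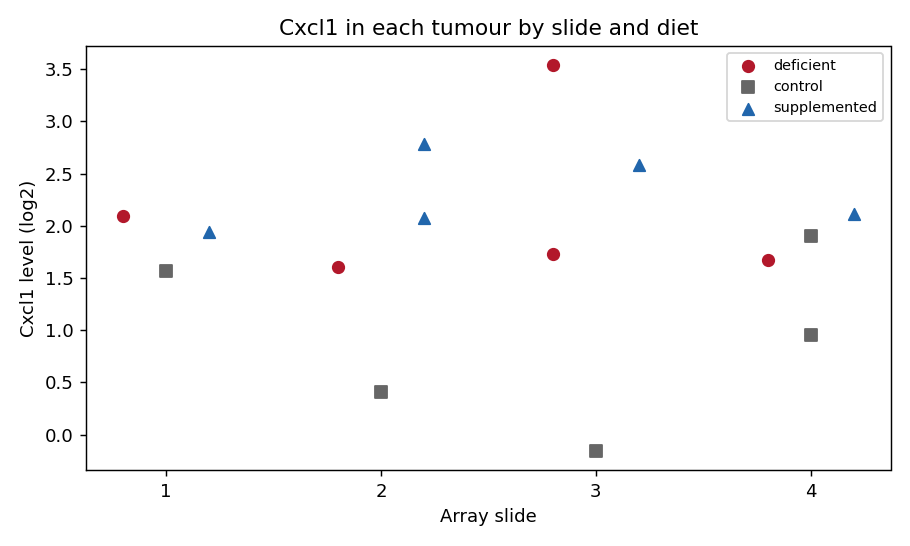
Cxcl1 level (log2) of each tumour by array slide, with one point per tumour and the diets drawn side by side, deficient left, control centre, supplemented right. On slides 1, 2 and 3 the control tumour is the lowest, and on slide 4 control tumour 4, at 1.90, lies above deficient tumour 5, at 1.67.

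Cxcl2, the neighbour of Cxcl1 with no annotated gene between them, was dimmer and more scattered. Its levels were 0.40, -1.17, 2.19, -1.66 and -1.16 in deficient tumours 1 to 5. They were -2.13, -2.62, -3.47, -0.44 and -0.44 in control tumours 1 to 5, and -1.25, -1.23, 0.61, -0.16 and -2.86 in supplemented tumours 1 to 5. The diets overlapped throughout, and Cxcl2 was well above background in 4, 3 and 4 tumours of the deficient, control and supplemented diets. The log2 difference was 1.54 (-0.13 to 3.21) for deficient minus control tumours and 0.85 (-0.83 to 2.52) for supplemented minus control tumours. Without deficient tumour 3 the first of these was 0.92, and the second was 0.43 without control tumour 3. In the authors' deposited values they were 0.65 and 0.32, and with normexp 0.73 and 0.56.

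Marker genes of neutrophils, the cells these ligands attract, did not pass the adjusted test in any diet comparison, but neither did any other probe. Their part in the Cxcl1 values was not tested. Of 13 listed markers 11 were on the array and 4 passed the filter: S100a8, S100a9, Ncf1 and Padi4. The mean level of those 4 was 0.01 ± 0.75 in deficient tumours, -0.37 ± 0.50 in control tumours and -0.69 ± 0.50 in supplemented tumours (SD, n = 5 each). The marker level ranged from -0.97 to 1.00 in deficient tumours, from -0.88 to 0.31 in control tumours and from -1.32 to -0.01 in supplemented tumours. For deficient minus control tumours 3 of the 4 markers were above 0 and 1 below (median log2 difference 0.39), and for supplemented minus control tumours 4 were below 0 (median -0.36), Ncf1 at -0.00310; over all probes 49.3% and 48.8% were above 0. For supplemented minus deficient tumours all 4 were below 0 (median -0.61), beside 49.9% of probes above 0. In that comparison 1 of the 4 had an unadjusted limma p under 0.05, as did 7.05% of probes. Csf3r, Cxcr2, Elane, Ngp and Mmp8, also on the list, were not well above background on any array.

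Cxcl9 was well above background on all 15 arrays, and its control tumours were the least scattered. Its levels were 0.01, 1.62, -0.06, 2.55 and 0.95 in deficient tumours 1 to 5. They were 1.61, 1.86, 1.42, 0.75 and 1.18 in control tumours 1 to 5, and -0.26, 1.60, -0.20, 0.43 and 1.92 in supplemented tumours 1 to 5. The SD was 1.11 in deficient tumours, 0.42 in control tumours and 1.01 in supplemented tumours, and the 4 tumours nearest 0 or below it were all from the deficient and supplemented diets. The log2 difference was -0.35 (-1.43 to 0.73) for deficient minus control tumours and -0.67 (-1.74 to 0.41) for supplemented minus control tumours. The first was -0.08 without deficient tumour 3 and -0.05 in the authors' deposited values, where the second was -0.39.

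Cxcl10, which lies beside Cxcl9 with no annotated gene between them, showed the same difference in scatter. Its levels were -3.72, -0.81, -0.15, 0.56 and -1.41 in deficient tumours 1 to 5. They were -1.16, -0.80, -1.21, -0.95 and -1.02 in control tumours 1 to 5, and -2.39, -0.76, -1.27, -2.24 and 0.87 in supplemented tumours 1 to 5. All 5 control tumours lay within a narrow band inside the range of either other diet, with an SD of 0.16 against 1.64 in deficient tumours and 1.32 in supplemented tumours. The mean differences were small, -0.08 (-1.52 to 1.36) for deficient minus control tumours and -0.13 (-1.57 to 1.31) for supplemented minus control tumours, and their sign changed under some other settings. The lowest values, -3.72, -2.39 and -2.24, were the 3 spots that were not well above background. A smaller SD in controls was not general: it was the smallest of the 3 diets in controls for 5 chemokines, in supplemented tumours for 3 and in deficient tumours for 2, and it was not tested.

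Ccl5 differed little between diets and widely within them. Its levels were -1.45, -1.48, 0.31, -0.84 and -0.87 in deficient tumours 1 to 5. They were -2.25, 0.04, -1.69, -1.47 and 0.43 in control tumours 1 to 5, and -1.31, -0.68, -2.44, -1.80 and 1.08 in supplemented tumours 1 to 5. Each diet had 1 or 2 tumours above 0 and the rest below. The log2 difference was 0.12 (-1.19 to 1.44) for deficient minus control tumours and -0.04 (-1.36 to 1.27) for supplemented minus control tumours.

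Ccl2 was well above background on all 15 arrays. Its levels were 1.55, 2.12, 0.49, 2.18 and 0.64 in deficient tumours 1 to 5. They were 1.19, 2.64, 1.45, 2.15 and 0.99 in control tumours 1 to 5, and 0.81, 2.44, 0.65, 0.95 and 1.90 in supplemented tumours 1 to 5. The diets covered nearly the same range, and the log2 difference was -0.29 (-1.20 to 0.63) for deficient minus control tumours and -0.33 (-1.25 to 0.58) for supplemented minus control tumours. Ccl7, the neighbour of Ccl2 on chromosome 10, ranged from -2.09 to 0.46 in deficient tumours (median -0.29), from -1.66 to 1.08 in control tumours (median -0.40) and from -1.74 to 0.16 in supplemented tumours (median -0.11). Its log2 difference was -0.30 for deficient minus control tumours and -0.28 for supplemented minus control tumours, and the 2 Ccl7 probes tracked each other with a Pearson r of 0.984 over the 15 arrays. Ccl7 was also the chemokine whose level went most with array brightness, with an r of -0.60 against the log2 75th percentile signal.

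Cxcl12 was measured by 2 probes that ranked the tumours differently, with an r of 0.35 and a rho of 0.40 over 15 arrays. The probe with the higher mean read 3.44, 5.02, 2.58, 3.02 and 4.84 in deficient tumours 1 to 5. It read 4.63, 4.59, 4.30, 4.97 and 3.90 in control tumours 1 to 5, and 4.62, 4.07, 4.77, 2.85 and 4.05 in supplemented tumours 1 to 5. Of the deficient tumours 3 lay below every control tumour and 1 above, with a log2 difference of -0.70 (-1.66 to 0.27) for deficient minus control tumours. It was -0.07 with array weights and -0.30 without the 3 dimmest arrays, and the level of this probe went with array brightness (r 0.47). Both probes were lower on average in deficient and in supplemented tumours than in control tumours, the other probe by -0.27 and -0.54. Their supplemented minus deficient differences had opposite signs, 0.29 and -0.27.

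Cxcl14 ranged from 0.77 to 3.65 in deficient tumours (median 2.17), from 1.89 to 3.67 in control tumours (median 2.69) and from 1.86 to 3.99 in supplemented tumours (median 2.59). The diets overlapped, and deficient tumour 3, at 0.77, lay 1.08 below the next lowest tumour. The log2 difference was -0.52 (-1.61 to 0.56) for deficient minus control tumours and -0.16 (-1.24 to 0.92) for supplemented minus control tumours. Without deficient tumour 3 the first of these was -0.13, and without the 3 dimmest arrays it was -1.25. The second was -0.80 with normexp, -0.52 with array weights, and changed sign to 0.06 without supplemented tumour 1.

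Ccl21 had the widest spread of the 10. Its levels were 1.93, -0.30, -0.15, -2.72 and 0.18 in deficient tumours 1 to 5. They were -4.46, -3.49, -5.07, 0.56 and 0.00 in control tumours 1 to 5, and -0.23, -2.74, -2.78, 0.53 and -3.26 in supplemented tumours 1 to 5. A gap of 2.42, from -2.72 to -0.30, separated 8 tumours (4 deficient, 2 control and 2 supplemented) from 7 lower ones, and Ccl21 was well above background on 9 arrays. The log2 difference was 2.28 (-0.11 to 4.67) for deficient minus control tumours and 0.79 (-1.60 to 3.18) for supplemented minus control tumours. In the authors' deposited values the first of these was 0.63 and the second 0.07, and with normexp they were 0.70 and 0.14. Of the 7 tumours below the gap, 6 were not well above background, among them control tumours 1, 2 and 3, so the exact differences rest on spots without a firm level. Because of the gap no correlation over all tumours is given for Ccl21.

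All 10 chemokines varied more between tumours of one diet than most probes did. The SD within diets exceeded that of 88.9% (Cxcl1) to 99.9% (Ccl21) of tested probes, and for 7 of the 10 it exceeded that of over 95% of probes. These shares are for the probe that stands for each gene, and the other Cxcl12 probe exceeded 80.1%. Cxcl2, Cxcl10, Ccl5 and Ccl21, the 4 not well above background on every array, are among those 7. The probes were not matched for level. Deficient tumour 3 held the highest Cxcl1 and Cxcl2 of all 15 tumours and the lowest Cxcl12, Cxcl14 and Ccl2. For Cxcl12 this holds for the probe with the higher mean. On the other probe deficient tumour 3 read 2.93, above deficient tumour 1 at 2.58 and supplemented tumour 5 at 2.53. Control tumour 3 held the lowest Cxcl1, Cxcl2 and Ccl21, and control tumour 2 the highest Ccl2 and Ccl7. Supplemented tumour 5 held the highest Cxcl10 and Ccl5.

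Co-variation between tumours was described for the other 9 chemokines, diets pooled. Of their 36 pairs, 6 had a Pearson r above 0.5 and 4 below -0.5, with a median of -0.01. The share among pairs of all tested genes was not measured, and nothing is read from these counts. Cxcl1 and Cxcl2 had an r of 0.78 and a rho of 0.64, and the r was 0.82 once slide and diet means were removed. Without the 2 tumours with the most extreme Cxcl1 it was 0.52. Of all tested genes, 0.287% were at least as close to Cxcl1 as Cxcl2 was, and 0.239% as close to Cxcl2 as Cxcl1 was. These values share arrays and scaling, served in choosing the genes, and are a description.

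Ccl2 and Ccl7 had an r of 0.72 and a rho of 0.71. For this pair 0.0478% of genes were at least as close to Ccl2 and 0.167% to Ccl7. Cxcl9 and Cxcl10 had an r of 0.65 and a rho of 0.68, with 0.323% of genes at least as close to Cxcl9 and 1.26% to Cxcl10. All 3 of these pairs are neighbours with no annotated gene between them, and each kept its sign when any 1 tumour was left out. With normexp the r of the neighbouring pairs was 0.67 for Cxcl1 and Cxcl2, 0.44 for Ccl2 and Ccl7 and 0.35 for Cxcl9 and Cxcl10. Probes of neighbouring family members can share sequence, which was not tested.

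**Figure D3:**
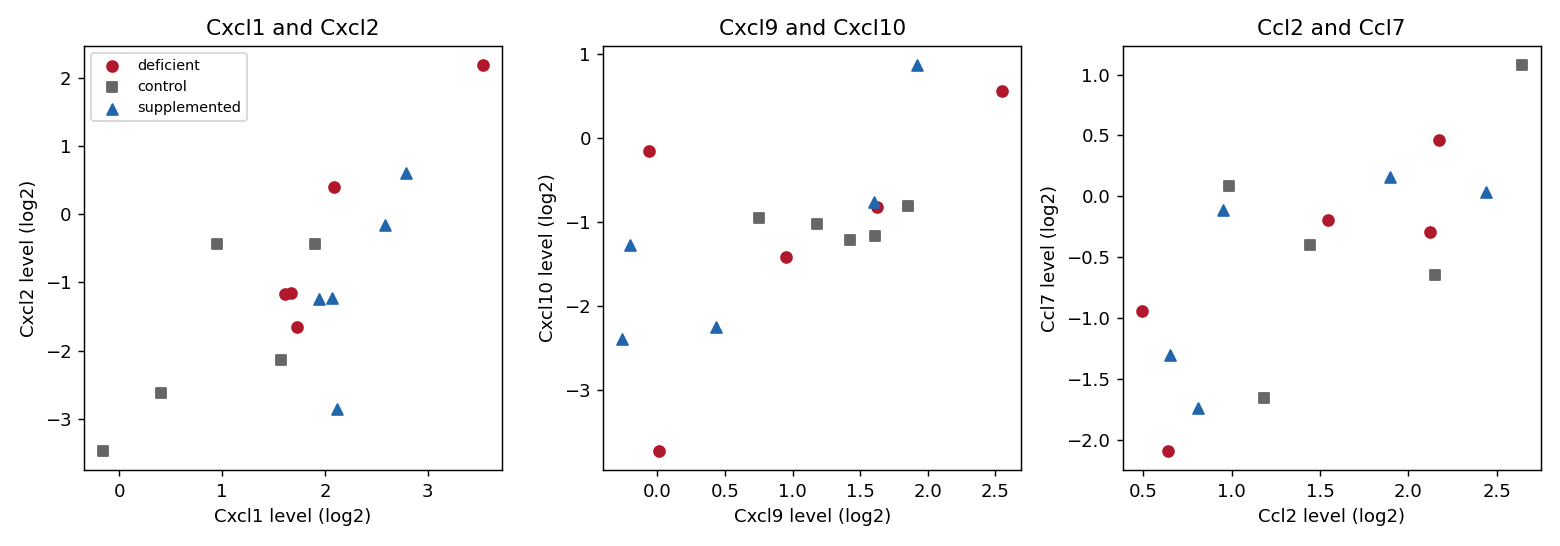
Levels (log2) of 3 pairs of neighbouring chemokine genes, with one point per tumour and colours and shapes for diet. Deficient tumour 3 is highest and control tumour 3 lowest in both Cxcl1 and Cxcl2, while supplemented tumour 5 (Cxcl1 2.11, Cxcl2 -2.86) and control tumour 5 (Cxcl1 0.95, Cxcl2 -0.44) stand away from the others.

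Between neighbourhoods, Cxcl9 went with Ccl2 (r 0.70, rho 0.71) and Ccl7 (r 0.54, rho 0.64), and Cxcl10 with Ccl5 (r 0.54, rho 0.59). For Cxcl9 and Ccl2, 0.203% of tested genes were at least as close to Cxcl9 and 0.0837% to Ccl2. For Cxcl9 and Ccl7 the shares were 1.58% to Cxcl9 and 2.57% to Ccl7. For Cxcl10 and Ccl5 they were 3.86% to Cxcl10 and 3.92% to Ccl5. Cxcl2 ran opposite to Cxcl9, with an r of -0.72 and a rho of -0.71, an r of -0.80 once slide and diet means were removed and of -0.58 with normexp. Cxcl1 also ran opposite to Cxcl9 (r -0.54), though with normexp the r was -0.26. An r at or above that of Cxcl2 and Cxcl9 was held by 99.7% of tested genes with Cxcl2 and 99.6% with Cxcl9. For Cxcl1 and Cxcl9 the shares were 96.8% with Cxcl1 and 96.2% with Cxcl9. The tumours with the highest neutrophil-attracting ligands were thus mostly low in Cxcl9: deficient tumour 3, highest in Cxcl1 and Cxcl2, ranked 13 of 15 in Cxcl9, and supplemented tumour 3, next in both, ranked 14. Cxcl1 and Cxcl10, which lie on one chromosome with 33 genes between them, had an r of 0.00.

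**Figure D4:**
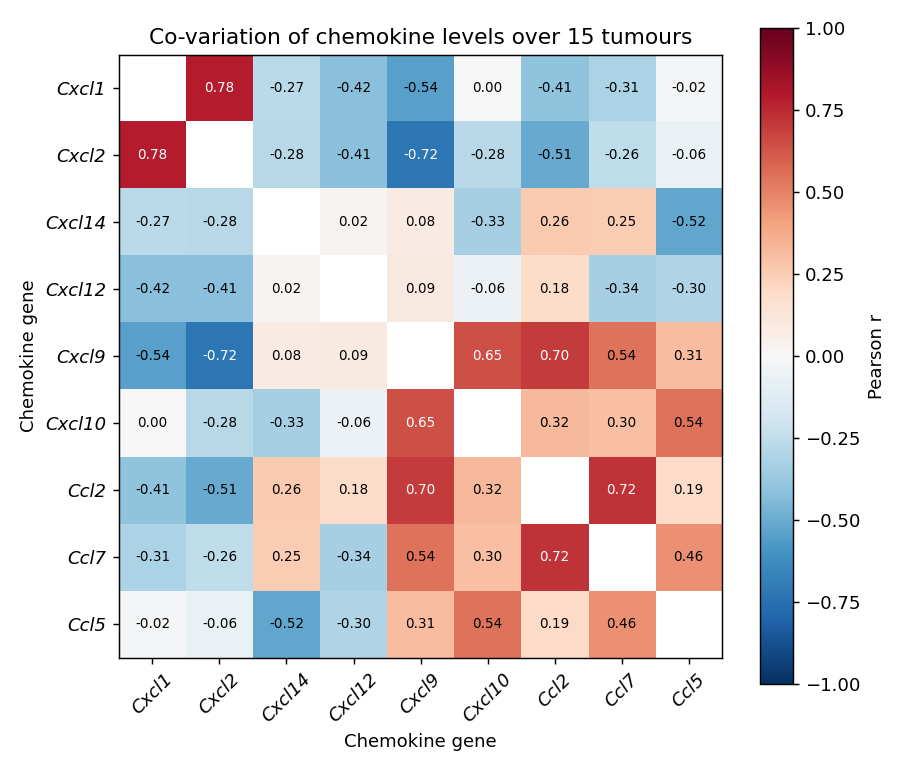
Pearson r between the levels of 9 chemokines over 15 tumours; Ccl21 is left out because its tumours fall on both sides of a gap. Red is positive and blue negative, and the neighbouring pairs Cxcl1 with Cxcl2 (0.78), Ccl2 with Ccl7 (0.72) and Cxcl9 with Cxcl10 (0.65) stand among the highest values.

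Genes most like Cxcl1 and Cxcl9 were sought by Pearson r over the 15 tumours. From 8365 named genes, only those with a mean level above the median and without a locus-type or clone-type symbol were ranked. The chemokines described here were left out. Among those ranked, the closest to Cxcl1 were Itm2b (0.90), a membrane protein gene, Dlx5 (0.85), a homeobox gene, and Dnajc3 (0.85). Dnajc3 is a co-chaperone of the endoplasmic reticulum. Among the same genes, the closest to Cxcl9 were Klhl5 (0.78), Snx24 (0.76), a sorting nexin gene, and Ccdc17 (0.73). Dimmer or locus-named genes, which were not ranked, may be closer to either.

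The levels of the ligands were set against the mean level of markers of cells in the tumour, in 10 pairs. Ccl5 varied with the mean of 7 T and NK cell markers, such as Cd3d, Cd3g, Zap70 and Nkg7: Pearson r was 0.89 and Spearman rho 0.82 over 15 tumours, with permutation p-values adjusted over the 10 pairs of 0.000200 and 0.00350. The chemokines were selected partly on co-variation in these same tumours and the lists were drawn up with earlier results known, so the p-values of the 10 pairs are not independent evidence. It was 0.79 without the 2 tumours farthest from the median marker level, supplemented tumour 5 and deficient tumour 3, and 0.90 with slide and diet means removed. Taken singly, Cd3d had an r with Ccl5 of 0.90, Cd3g of 0.88, Zap70 of 0.91 and Nkg7 of 0.90. Supplemented tumour 5 had the highest marker level, 1.85, and the highest Ccl5, 1.08, whereas supplemented tumours 3 and 4 had the lowest marker levels, -1.16 and -1.57, with Ccl5 at -2.44 and -1.80.

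Cxcl10 gave an r of 0.61 and a rho of 0.75 with the same markers, with adjusted permutation p-values of 0.0738 and 0.00955. Without the 2 farthest tumours its r was 0.38; it was 0.47 without supplemented tumour 5 alone, 0.58 without deficient tumour 3 alone and 0.82 without the 3 dimmest arrays. Cxcl9 gave an r of 0.33 (adjusted permutation p 0.414). Of the 16 T and NK cell markers listed, 4 were not well above background on any array, among them Cd4 and Cd247, and 7 passed the filter.

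**Figure D5:**
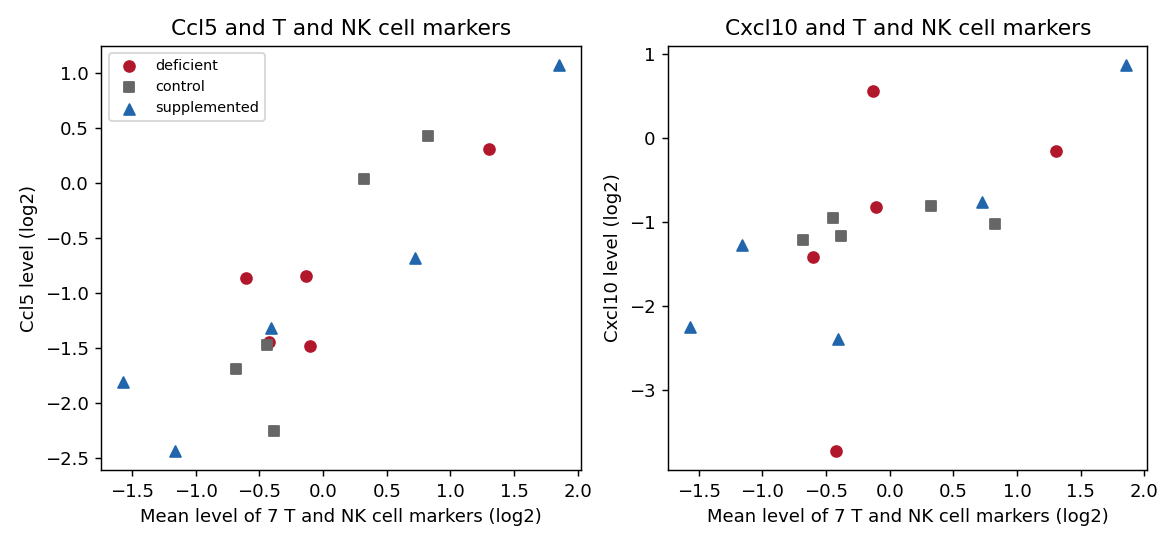
Level (log2) of Ccl5, left, and Cxcl10, right, against the mean level of 7 T and NK cell markers, with one point per tumour (15) and colours and shapes for diet. Ccl5 climbs with the markers across all 3 diets (r 0.89), and Cxcl10 scatters more (r 0.61).

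For the other ligands the adjusted permutation p was 0.341 or more. The r was 0.16 for Cxcl1 and 0.44 for Cxcl2 against 4 neutrophil markers, and 0.06 for Ccl2 and 0.32 for Ccl7 against 11 macrophage markers. It was 0.19 for Cxcl12 against 8 fibroblast markers and 0.11 for Cxcl14 against 8 epithelial markers. The neutrophil markers differed in sign. Taken singly, S100a8 had an r with Cxcl1 of 0.31, S100a9 of 0.29, Ncf1 of 0.30 and Padi4 of -0.44. With Cxcl2 these were 0.53, 0.66, 0.21 and -0.32. Without control tumour 5 and deficient tumour 3, the tumours with the most extreme macrophage marker levels, the r of Ccl2 was 0.70. For Cxcl2 and the neutrophil markers the r was 0.12 without deficient tumour 3, 0.14 without the 2 tumours farthest in marker level, and 0.74 with normexp (adjusted permutation p 0.0164). The remaining pair of the 10, Ccl21 with 2 lymphatic markers, is among those adjusted for, but its r is not given because of the gap in Ccl21. The lymphatic markers Prox1 and Flt4 were not well above background on any array.

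The receptors of these ligands were mostly dim. Of 22 listed chemokine receptors 19 were on the array, and 14 of those were not well above background on any array. Among those 14 were Cxcr2, the receptor of Cxcl1 and Cxcl2, Ccr7, the receptor of Ccl21, and Cxcr1. Cxcr3, the receptor of Cxcl9 and Cxcl10, was well above background on 1 array, Ccr2 on 1 and Cxcr6 on 2. Cxcr4, the receptor of Cxcl12, was well above background on 15 arrays and passed the adjusted test in 0 of the diet comparisons: its mean was -0.80 in deficient, -1.07 in control and -1.13 in supplemented tumours. A second Cxcr4 probe, well above background on 1 array, averaged -2.83 in deficient, -3.60 in control and -3.07 in supplemented tumours, another order of the diets.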

How the data were processed

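The authors deposited one scanner file per array, with spot intensity on a linear scale after background subtraction and detrending. The software was Feature Extraction 11.5.1.1 according to the files' own headers, against 15.5 in the submitters' processing notes. A table the authors deposited holds log2 values of 30002 probes; its array medians were 7.09 to 7.10, its columns followed the log2 median signal, and its normalization is not given in the sources used here. It was an alternative. Levels are log2 processed signal minus the array's 75th percentile; outlier-marked spots were missing. Probes above that background mark on 5 or more arrays were tested with limma 3.58.1 (R 4.3.3), all 3 diets in one fit, with Benjamini-Hochberg adjustment; 40 values were missing, none in a chemokine. The raw mean signal is absent from the files, so normexp (offset 50) used the median signal. Genes were named by accession through RefSeq (GRCr8); 17502 of 41012 probes (42.7%) had 1 gene, 0 several, the rest none. The probe with the highest mean level stands for a gene. Correlations used 100000 resamples, so the smallest possible p is 1e-05.

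Samples labelled negative control were taken to be those on adequate chow. One label field gives mammary gland at day 21, while the others give tumours at 180 days, which were followed. The chemokines and all lists were chosen with earlier results of these data known. Named genes are the 10 chemokines, their receptors and other chemokines, and up to 4 or all tested markers of each list. Also named are the 3 genes most like Cxcl1 and Cxcl9 among those ranked (those of Ccl21 were left out because of its gap). Alternatives were other background correction, scaling, filters, slide or replicate number as a block, array weights, brightness as a covariate and leaving out arrays. Results for some genes are not reported here.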

Additional observations from a re-analysis of the deposited data

Results flagged for a closer look

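In 48 groups of 5 tumours, made of the chemokines and the marker lists by diet, 3 held a tumour far from the other 4, and chance flags about 1 in 20 groups. Cxcl1 in deficient tumour 3 was 3.54, against 2.09 in the next highest deficient tumour. The mean of the 7 T and NK cell markers was 1.31 in deficient tumour 3, against -0.11 in the next. The mean of the 8 epithelial markers was 4.50 in control tumour 4, against 4.36 in the next highest control tumour. Deficient tumour 3 was thus flagged for both Cxcl1 and T and NK cell markers, and without it deficient minus control Cxcl1 was 0.84.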

How the results depend on the processing

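With 5 tumours a diet, the number of arrays limits the precision, and for the 4 chemokines not well above background on every array so does the signal. In simulated data with known changes, the deficient and control comparison recovered 47.1% of changes of 2-fold and 92.0% of 4-fold among 20971 probes. The changed probes were drawn at random from all of these. The 10 chemokines had larger SDs within diets than 88.9% to 99.9% of tested probes, and recovery for genes that scattered was not measured. Over 28 alternative settings per comparison, supplemented minus control kept 0 calls. Deficient minus control gave 1 call with only the arrays of the 2 diets (adjusted p 0.00320), supplemented minus deficient 1 with array weights (0.0194) and 1 without supplemented replicate 1 (0.0263), so that over the settings that leave out 1 tumour it lay between 0 and 1, and the F test over 3 diets gave 1 with array weights (0.0321). These are Capns2 for the setting without supplemented replicate 1 and unnamed probes for the rest, named after their values were seen, and none is a chemokine of the 10. The count of ligand and marker pairs passing the adjusted test, 1 in the main setting, was 3 with normexp, 2 with the deposited values, 2 with slide as a fixed block, 2 with the replicate block, 2 without the 3 dimmest arrays and 2 with slide and diet means removed; it was 0 with probes well above background on all 15 arrays, where Ccl5 and Cxcl10 were not tested and 6 pairs were left. Leaving out 1 tumour gave 1 to 2. The second pair in each case was Cxcl10 with T and NK cell markers, whose adjusted permutation p ran from 0.00400 to 0.446 over all settings that tested it; the additional pair with normexp was Cxcl2 with neutrophil markers. The r of Ccl5 with T and NK cell markers lay between 0.80 and 0.91 over these settings, and was 0.79 without the 2 farthest tumours. Of 834 values of the 30 chemokine differences between diets, 1 moved by over 1 SD (Cxcl1, supplemented minus control, 0.56 with normexp) and 75 changed sign, in 15 differences; none of the 3 differences of Cxcl2 or of Ccl21 did, nor did Cxcl1 against control. The replicate numbers did not pair the tumours (deviations of equal numbers correlated by -0.28 to 0.22, and 4 of 15 arrays were closest to one of their own number), and the replicate block left 0 calls. Pearson r of the chemokines with each other under other settings was added after seeing the data.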

Other observations

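Of 26 other chemokines listed, 22 were on the array and 12 passed the filter, and 0 of those 12 passed limma's adjusted test in any diet comparison. Between deficient and control tumours 5 were above 0 and 7 below, with a median log2 difference of -0.07. Cx3cl1, a membrane-bound ligand, was well above background on 15 arrays, with mean levels of 4.75 in deficient, 4.83 in control and 5.16 in supplemented tumours. Ccl28, an epithelial ligand, was the only 1 of the 12 with an unadjusted p under 0.05 in a comparison with control tumours. Over all probes the share was 3.91% for deficient and 1.98% for supplemented against control tumours, and nothing is read from this count. The mean of Ccl28 was -1.33 in deficient tumours and -2.73 in control tumours, a log2 difference of 1.40 (limma p 0.0397, adjusted p 0.987). It was well above background on 6 arrays. Pf4, a platelet chemokine, had mean levels of 1.46 in deficient, 1.08 in control and 0.63 in supplemented tumours. Ccl20, Ccl24, Ccl25, Ccl26, Ccl9 and Cxcl11 were not well above background on any array.

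Of 10 NF-kB and acute inflammation genes that passed the filter, 6 were above 0 between supplemented and control tumours and 4 below, with a median log2 difference of 0.08. Of 16 interferon response genes 5 were above 0 and 11 below in that comparison, with a median of -0.16. Between deficient and control tumours the medians were 0.16 and -0.03. No gene of either list passed the adjusted test.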
